A study of Mus musculus with 4 samples.

Results

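The Wnt/β-catenin effectors and target genes described here are 10 genes, Ctnnb1, Axin2, Nkd1, Lef1, Tcf7, Tcf7l1, Tcf7l2, Rnf43, Lgr5 and Myc, out of 26322 genes listed for mouse MC38 cells. They were chosen by symbol, as the β-catenin gene, the 4 TCF/LEF factors and 5 canonical targets. MC38 is a mouse colon cancer line. Cells received Cas9 in complex with either a non-targeting guide (sgNT, labelled WT) or a guide against Cbfb (sgCbfb, labelled CbfbKO), and RNA was taken at least 1 week later. Each group had 2 libraries, and all 4 libraries came from electroporated cells. The labels do not say whether same-group libraries came from separate electroporations or cultures, so p-values measure only the spread between these libraries, which may be technical.

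In the canonical Wnt pathway, a destruction complex built around AXIN, APC, CK1 and GSK3 marks β-catenin for degradation. Wnt ligands that bind Frizzled and LRP receptors block this complex, and β-catenin then enters the nucleus and binds TCF/LEF proteins on DNA. Without β-catenin the TCF/LEF proteins hold TLE corepressors at target genes. Several targets feed back on the pathway, and in the intestinal epithelium it maintains stem cells and is often activated in colon cancer. CBFβ is the partner of the RUNX proteins, which also recruit TLE corepressors.

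The libraries were made from transcript 3′ ends, so that read numbers do not grow with transcript length. Levels of different genes are set side by side on that basis only. The annotation release and the handling of reads matching several genes are not given. The values are log2 CPM, the log2 of reads scaled to a common library total after a small count was added. The reads behind them could be recovered, and totalled between 3189035 and 3907936 per library. A count of 3 reads, used here as a mark of very low level, corresponds to between 0.768 and 0.941 CPM. Cbfb itself gave 86.9 and 85.5 CPM in sgNT and 32.0 and 39.2 CPM in sgCbfb, or 41.5% of the sgNT level (log2 fold change -1.27, SE 0.12, adjusted p = 1.76e-07 from limma). This call was lost without the low-value filter, without the mean-variance trend and with either sgCbfb library left out (adjusted p from 0.115 to 0.290 in limma), with a log2 fold change between -1.41 and -1.12. Of 12207 genes tested, 192 were higher (1.57%) and 153 lower (1.25%) in sgCbfb cells, which is 2.83% in either direction. Median-scaled voom on recovered reads gave 175 higher and 236 lower genes, so that the balance of directions depends on the scaling. The counts were 39 and 44 with quantile normalization, 2 and 53 without the filter, and 0 and 0 without the trend or with either sgCbfb library left out. The labelled colorectal origin was checked against 12 colon epithelial markers, which summed to between 1.77 and 1.80 CPM in sgNT and between 1.57 and 1.79 CPM in sgCbfb. Krt18 and Vil1 had 0 reads in every library and Epcam had at most 1. The 10 mesenchymal markers summed to between 2564 and 2702 CPM in sgNT and between 2258 and 2354 CPM in sgCbfb, nearly all of it Vim (means of 2454 and 2165 CPM). Of these markers 6 were tested, 3 with a log2 fold change above 0 and 3 below, and 1 passed, Col3a1, which was lower in sgCbfb. Col3a1, Dcn and Pdgfra averaged 109.9, 33.4 and 31.5 CPM in sgNT and 58.7, 29.7 and 45.5 CPM in sgCbfb. Thy1 and Lum had 0 reads in every library and Acta2 at most 1. The 10 immune markers summed to at most 1.79 CPM and the 6 endothelial markers to at most 0.600 CPM in any library. What part these markers have in the results on Wnt genes was not tested.

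Of the 10 genes, 7 reached the minimum for testing (log2 CPM of 0 or more in 2 or more libraries), of which 0 passed an adjusted p-value of 0.05 in limma. Voom on the recovered reads also called 0 of them, with library totals and with median scaling. At an unadjusted p-value under 0.05, 1 of the 7 (Myc) passed in limma, where 14.9% of all tested genes did. In voom with library totals 2 (Ctnnb1 and Myc) passed, where 1889 of 12207 genes did. The median log2 fold change of the 7 genes was 0.034, beside 0.039 over all tested genes. In 5 of the 7 genes both sgCbfb libraries lay on one side of both sgNT libraries, which was also true of 44.1% of all tested genes. Axin2, Nkd1 and Lgr5 did not reach the minimum for testing. For any one gene, exact permutation of 2 against 2 libraries gives no p below 0.333.

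**Figure D1:**
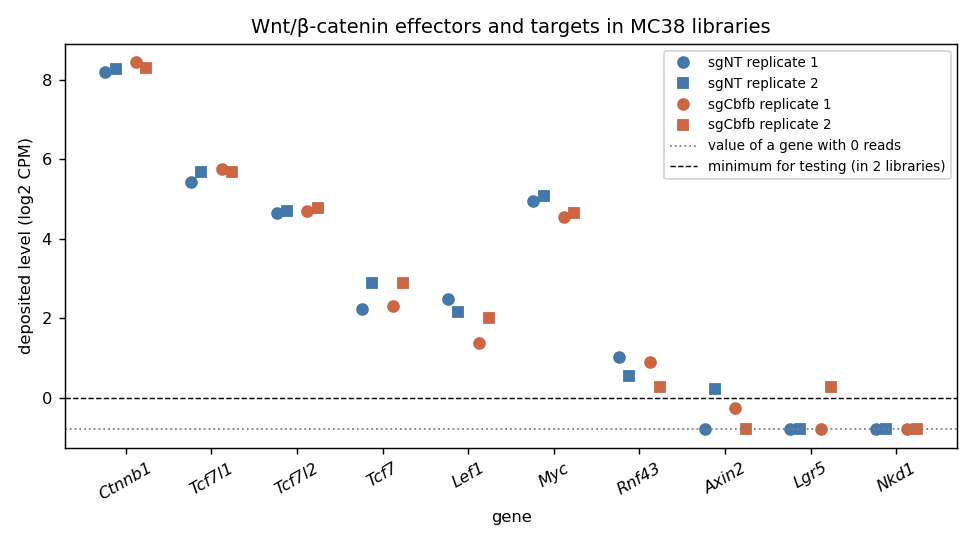
Deposited level (log2 CPM) of the 10 genes in each sgNT (blue) and sgCbfb (orange) library, with circles for replicate 1 and squares for replicate 2. Ctnnb1 lies above 8 in every library, while Nkd1 sits at the value of a gene with 0 reads (-0.79) in all 4.

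Ctnnb1 encodes β-catenin, the signal carrier of the pathway and a component of cadherin junctions (chr9:120929216-120960507, plus strand, GRCm38). It was the most abundant of the 10 genes in every library. Its reads numbered 990 and 1036 in sgNT and 1359 and 1000 in sgCbfb, or 291.5 and 310.6 CPM against 347.8 and 313.6 CPM. The sgCbfb libraries were thus both above the sgNT libraries, the second of them by little. On the log2 CPM scale the sgNT mean was 8.24 ± 0.065 and the sgCbfb mean 8.37 ± 0.11 (SD, n = 2 each), and 96.0% of tested genes had a mean level at or below it. The log2 fold change was 0.13 with a 95% confidence interval from -0.01 to 0.28 (adjusted p = 0.382 from limma). In percent of the sgNT level, the interval runs from 99.3% to 121.2%. With single libraries left out the log2 fold change ranged from 0.059 to 0.21. β-catenin is controlled mainly through the stability of the protein, which these libraries do not measure.

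Among the TCF/LEF factors, Tcf7l1 and Tcf7l2 supplied most of the reads and Tcf7 and Lef1 few, in both groups. Tcf7l1, which encodes TCF3, known mainly as a repressor of Wnt targets (chr6:72626378-72789254, minus strand, GRCm38), had 146 and 169 reads in sgNT and 210 and 162 in sgCbfb. These are 43.0 and 50.7 CPM against 53.7 and 50.8 CPM, with the first sgNT library apart from the other three. Its log2 fold change was 0.16 (95% confidence interval -0.10 to 0.42, adjusted p = 0.612 from limma), and from 0.044 to 0.28 with single libraries left out. Tcf7l2, which encodes TCF4, the main β-catenin partner in intestinal epithelium (chr19:55741820-55933654, plus strand), had 24.4 and 25.5 CPM in sgNT and 25.6 and 26.7 CPM in sgCbfb. All 4 libraries lay close together, and the log2 fold change was 0.06 (95% confidence interval -0.28 to 0.40, adjusted p = 0.907 from limma).

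Tcf7, which encodes the T cell factor TCF1 (chr11:52252371-52283014, minus strand), had 14 and 23 reads in sgNT and 17 and 22 in sgCbfb. The replicates of a group differed more than the groups did. The log2 fold change was 0.03 (95% confidence interval -0.69 to 0.76, adjusted p = 0.981 from limma), and its sign changed to -0.04 with quantile normalization and with median-scaled voom. Lef1, a TCF/LEF factor that is itself a Wnt target (chr3:131110471-131224356, plus strand), had 17 and 13 reads in sgNT and 8 and 11 in sgCbfb. Both sgCbfb libraries were below both sgNT libraries, at 2.05 and 3.45 CPM against 5.01 and 3.90 CPM. The difference was not past the threshold, with a log2 fold change of -0.62 (95% confidence interval -1.42 to 0.18, adjusted p = 0.495 from limma). With single libraries left out the log2 fold change ranged from -0.93 to -0.31. Pooled over a group, the level was 4.46 CPM in sgNT and 2.68 CPM in sgCbfb, with exact Poisson intervals for counting error of 3.01 to 6.36 CPM and 1.61 to 4.18 CPM.

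Taken as a family, the 4 TCF/LEF genes summed to 76.6 and 87.0 CPM in sgNT and 85.7 and 87.8 CPM in sgCbfb. Tcf7l1 made up 56.2% and 58.3% of these reads in sgNT and 62.7% and 57.9% in sgCbfb. Tcf7l2 made up 31.9% and 29.3% in sgNT and 29.9% and 30.4% in sgCbfb. Tcf7 supplied 5.38% and 7.93% in sgNT and 5.07% and 7.86% in sgCbfb. Lef1 supplied 6.54% and 4.48% in sgNT and 2.39% and 3.93% in sgCbfb, the smallest share of the 4 in every library but the first sgNT library. There were 3.81 and 3.57 Ctnnb1 reads for each TCF/LEF read in sgNT and 4.06 and 3.57 in sgCbfb, so that the groups overlapped.

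**Figure D2:**
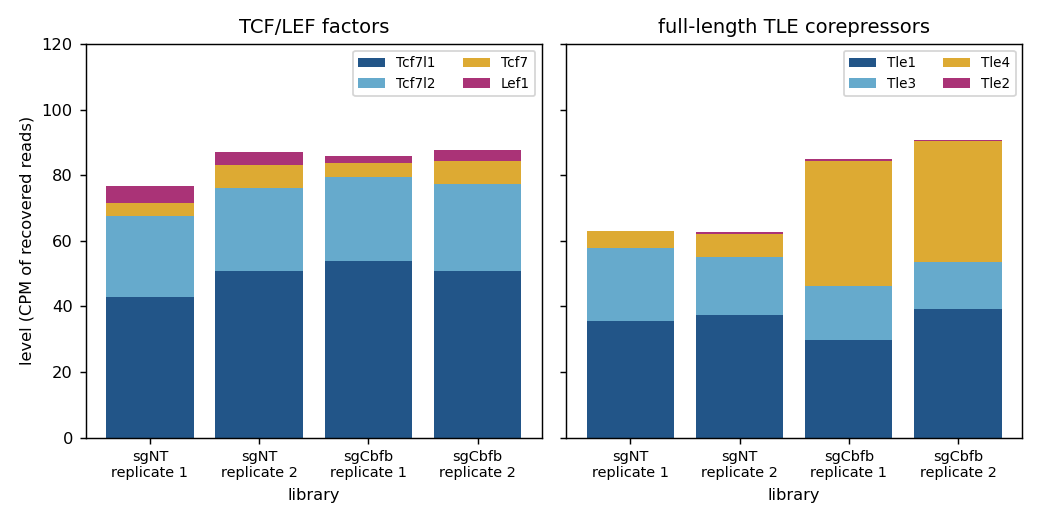
Stacked level (CPM of recovered reads) of the 4 TCF/LEF genes (left) and of the 4 full-length TLE genes (right) in each library. Tcf7l1 is the largest part of the TCF/LEF reads in all 4 libraries, while the Tle4 part grows from 8.41% and 11.0% of the TLE reads in sgNT to 44.9% and 40.5% in sgCbfb.

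The windows of 250 bases before each start site in RefSeq (GRCm38.p6) were searched on both strands for the TCF/LEF core, written as CTTTGA or CTTTGT, and for the RUNX core, written as TGTGGT or TGCGGT. Of the 10 genes, 8 had entries, with 15 windows between them. CTTTGA was in 1 of the 15, beside 13.8% of 32851 windows of all genes, and CTTTGT was in 3 of the 15, beside 16.5%. TGTGGT was in 0 of the 15, beside 14.0%, and TGCGGT was in 0 of the 15, beside 5.10%. No matches overlapped each other. The windows with matches belonged to an internal start of Lef1, to Tcf7l1 and to an internal start of Tcf7l2. Those of Lef1 and Tcf7l2 are shown because they hold the factors' own core outside annotated exons. Capitals mark the core, read on the gene's strand, so that TCAAAG and ACAAAG are the core on the opposite strand. The stretches lie in introns of GENCODE M21, and 3′ reads do not tell which start a transcript used.
Lef1, chr3:131156094-131156199, plus strand: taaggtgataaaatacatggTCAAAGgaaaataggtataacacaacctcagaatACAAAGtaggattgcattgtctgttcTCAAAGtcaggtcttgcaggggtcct
Tcf7l2, chr19:55895287-55895320, plus strand: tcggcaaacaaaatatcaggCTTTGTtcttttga

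The feedback targets Axin2, Nkd1 and Lgr5 had at most 2 reads in any library, and Rnf43 at most 5. Axin2, a scaffold of the destruction complex and a widely used readout of β-catenin signalling (chr11:108920349-108950783, plus strand), had 0 and 2 reads in sgNT and 1 and 0 in sgCbfb. Nkd1, which encodes the Dishevelled antagonist naked cuticle (chr8:88521354-88594884, plus strand), had 0 reads in every library, as did 43.5% of the genes listed. Lgr5, the R-spondin receptor that marks intestinal stem cells (chr10:115450311-115587780, minus strand), had 0 and 0 reads in sgNT and 0 and 2 in sgCbfb. No count exceeded 2 reads, which is below the mark of 3. These genes did not reach the minimum for testing, and no fold change is given for them. Axin1, the paralog that is not a feedback target, had 201 and 195 reads in sgNT and 216 and 159 in sgCbfb. Rnf43, which encodes a ubiquitin ligase that removes Frizzled receptors from the cell surface (chr11:87662722-87735539, plus strand), had 5 and 3 reads in sgNT and 5 and 2 in sgCbfb. Its groups overlapped, and its log2 fold change was -0.22 with a wide 95% confidence interval, from -1.24 to 0.80 (adjusted p = 0.890 from limma).

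Myc, a transcription factor that drives cell growth and a β-catenin target in colon cancer (chr15:61985391-61990374, plus strand), was the one target of the 10 with a substantial level. It had 103 and 111 reads in sgNT and 89 and 79 in sgCbfb, or 30.3 and 33.3 CPM against 22.8 and 24.8 CPM. Both sgCbfb libraries were below both sgNT libraries, and the gap between the groups was wider than that between replicates. On the log2 CPM scale the sgNT mean was 5.02 ± 0.093 and the sgCbfb mean 4.60 ± 0.084 (SD, n = 2 each). The log2 fold change was -0.41 (SE 0.16, 95% confidence interval -0.74 to -0.08), with an unadjusted p of 0.0175 in limma, but it did not pass adjustment over all genes (adjusted p = 0.200 from limma). Over the alternatives the adjusted p ranged from 0.134 to 0.592 and the log2 fold change from -0.48 to -0.35. In sgNT the level of Myc lay above that of Tcf7l2 in both libraries, and in sgCbfb it lay below it in both. Whether that order differs between the groups was not tested.

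**Figure D3:**
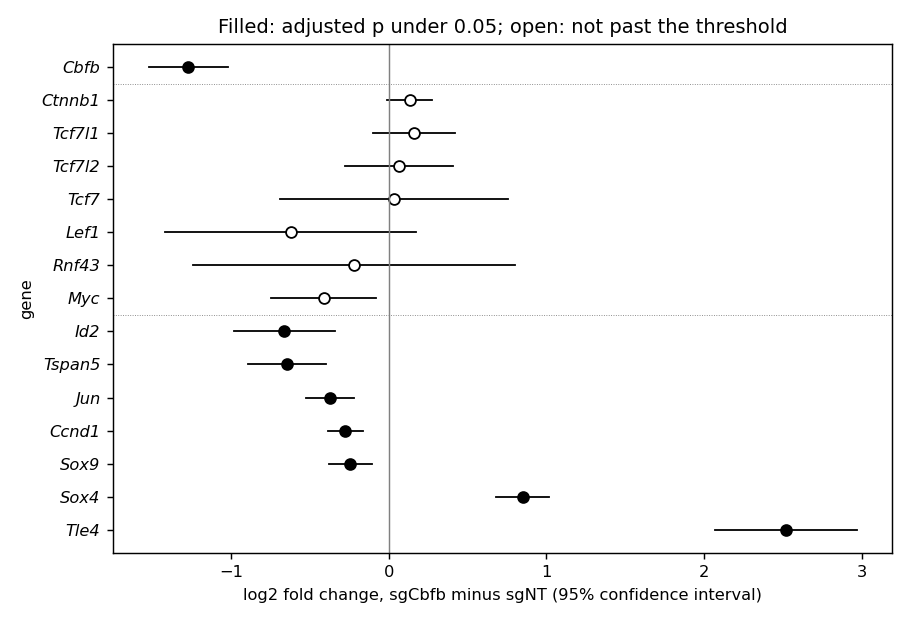
Log2 fold change (sgCbfb minus sgNT) with its 95% confidence interval from limma for Cbfb, for the 7 tested Wnt genes and for the 7 other pathway genes past the threshold (filled). All 7 Wnt genes are open, from -0.62 for Lef1 to 0.16 for Tcf7l1, while Tle4 reaches 2.52.

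TCF/LEF factors repress their targets through TLE corepressors. The family list holds 6 genes, and 1 of them (Tle4) passed the threshold, where 2.83% of all tested genes did. Tle4 had 18 and 23 reads in sgNT and 149 and 117 in sgCbfb and rose by 2.52 in log2 units (SE 0.22, adjusted p = 3.76e-08 from limma). The other 5 TLE genes did not pass. Tle1 averaged 5.21 ± 0.051 in sgNT and 5.12 ± 0.28 in sgCbfb, and Tle3 averaged 4.35 ± 0.22 and 4.01 ± 0.14 (log2 CPM, SD, n = 2 each). Tle2 had at most 2 reads in any library, and the short member Aes (log2 fold change 0.03) and the divergent member Tle6 (0.24) were not past the threshold either. Tle1 to Tle4 together gave 0.823 and 0.721 reads for each TCF/LEF read in sgNT and 0.991 and 1.03 in sgCbfb, so both sgCbfb libraries were above both sgNT libraries. The call for Tle4 held with either sgNT library left out. It was lost when the low-value filter or the mean-variance trend was dropped (adjusted p = 0.182 and 0.113 from limma), at the same log2 fold change. It was also lost without sgCbfb replicate 1 (adjusted p = 0.302 from limma) and without sgCbfb replicate 2 (adjusted p = 0.287 from limma), fits in which 0 of 12207 genes passed although 1104 and 1169 had an unadjusted p-value under 0.05. The log2 fold change of Tle4 in these fits was 2.49 and 2.55.

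In the 6 lists from ligands to nuclear partners of β-catenin, no gene passed the threshold. Beside the counts below, 14.9% of all tested genes had an unadjusted p-value under 0.05 in limma. Of all listed genes, 43.5% had no reads in any library. Of 21 genes of Wnt ligands and their secretion, 8 were tested, 0 passed (1 at an unadjusted p-value under 0.05) and 9 had no reads in any library. The most abundant was Wls, the carrier that brings Wnt proteins to the cell surface, with 385 and 362 reads in sgNT and 447 and 393 in sgCbfb. Among ligands, Wnt7b had 31 and 42 reads against 45 and 25, and Wnt5a, usually assigned to the β-catenin-independent branch, 27 and 28 against 25 and 21. Of 16 receptors and co-receptors, 13 were tested and 0 passed (3 unadjusted). The receptor kinase-like Ryk had a log2 fold change of 0.23 (adjusted p = 0.0977 from limma), the Frizzled receptor gene Fzd2 of 0.39 (adjusted p = 0.150) and the co-receptor gene Lrp6 of -0.24 (adjusted p = 0.378).

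Of the 7 other genes of the R-spondin axis, 3 were tested and 0 passed (1 unadjusted, where 14.9% of all tested genes were). Znrf3, the relative of Rnf43 with the same function, was well above it, with 59 and 77 reads in sgNT and 76 and 60 in sgCbfb. Lgr4, the relative of Lgr5, had 19 and 12 reads against 35 and 23 (log2 fold change 0.76, adjusted p = 0.256 from limma), and the ligand gene Rspo3 had at most 5 reads. Of 21 antagonists, 15 had no reads in any library, where 43.5% of all listed genes had none. Of the antagonists 5 were tested and 0 passed (2 unadjusted). The DKK co-receptor gene Kremen1 (log2 fold change 0.18) and the Dishevelled-binding Dact3 (0.03) showed overlapping groups. The 2 antagonists under an unadjusted 0.05 lay in opposite directions. Dact2, a relative of Dact3, had 11 and 6 reads in sgNT and 19 and 18 in sgCbfb (log2 fold change 0.95, adjusted p = 0.217 from limma). The LRP ligand gene Dkk2, named after its values were seen, had 17 and 16 reads in sgNT and 8 and 6 in sgCbfb (log2 fold change -1.11, adjusted p = 0.139 from limma).

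Most genes of the intracellular machinery reached the minimum for testing, some with few reads. Dvl3 had 0 and 9 reads in sgNT and 7 and 3 in sgCbfb. Of 23 Dishevelled and destruction complex genes 22 were tested, and 0 passed (4 unadjusted, where 14.9% of all tested genes were). The log2 fold change was above 0 in 17 of the 22 and below 0 in 5, where 43.0% of all tested genes were below 0. The median was 0.13, beside 0.039, and neither was tested. The deubiquitinase gene Usp34 had a log2 fold change of 0.03, the CK1 gene Csnk1a1 of -0.08 and the phosphatase scaffold gene Ppp2r1a of 0.04. Of 18 nuclear partners of β-catenin, 16 were tested and 0 passed (2 unadjusted), with a median of 0.09. The corepressor gene Ctbp1, the β-catenin inhibitor gene Ctnnbip1 and the chromatin remodeller gene Smarca4 had log2 fold changes of 0.03, 0.11 and 0.06.

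Of 11 genes of cadherin junctions, where β-catenin links cadherins to actin through α-catenin, 5 were tested and 0 passed. At an unadjusted p-value under 0.05 there were 2, where 14.9% of all tested genes were. Ctnna1 had a log2 fold change of 0.17, Ctnnd1 of 0.02 and Cdh2 of 0.19. The 2 genes under an unadjusted 0.05, Ctnna1 and Ctnnal1, lay in opposite directions. Ctnnal1, named after its values were seen, had a log2 fold change of -0.60 (adjusted p = 0.0996 from limma). The epithelial cadherin gene Cdh1 had at most 2 reads in a library, against 84 and 89 reads of the neural cadherin gene Cdh2 in sgNT and 119 and 90 in sgCbfb. Of 23 genes of the planar polarity and calcium branches, 15 were tested and 0 passed (3 unadjusted), and Rac1, Rhoa and Nfatc3 had log2 fold changes of 0.15, -0.11 and 0.02.

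Further target genes of the pathway were taken from a list of 40, most of which also answer to other signals. Of these, 25 were tested, 1 was higher (Sox4) and 5 were lower (Ccnd1, Sox9, Jun, Id2 and Tspan5) in sgCbfb cells, and 19 did not pass (10 of the 25 unadjusted). The median of the 25 was 0.01. The 6 called genes of 25 and, over the 10 lists, the 7 of 118 (5.93%) stand beside 2.83% of all tested genes, and the 29 of 118 under an unadjusted 0.05 beside 14.9%. No test compared these shares. Sox4, a transcription factor gene of progenitor and tumour cells, rose from 347 and 338 reads in sgNT to 700 and 601 in sgCbfb (log2 fold change 0.85, SE 0.082, adjusted p = 1.90e-07 from limma). Ccnd1, which encodes cyclin D1 of the G1 phase, was the most abundant at 3068 and 3072 reads in sgNT and 3013 and 2353 in sgCbfb, and fell by 0.27 in log2 units (SE 0.055, adjusted p = 0.00353 from limma). Jun, of the AP-1 factors, fell by 0.37 and Sox9, a factor of intestinal progenitors, by 0.24 in log2 units (adjusted p = 0.00307 and 0.0483 from limma). Id2, an inhibitor of basic helix-loop-helix factors, fell by 0.66 and the tetraspanin gene Tspan5 by 0.64 (adjusted p = 0.0147 and 0.00161 from limma).

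These calls depended on single libraries, the low-value filter, the scaling and the variance model. Without sgNT replicate 1, Sox4 and Tspan5 were still called among the 6, and without sgNT replicate 2, Sox4 and Jun were. With either sgCbfb library left out none of them was, while the log2 fold changes stayed close, from 0.81 to 0.89 for Sox4, -0.31 to -0.24 for Ccnd1, -0.41 to -0.33 for Jun, -0.25 to -0.24 for Sox9, -0.67 to -0.65 for Id2 and -0.67 to -0.61 for Tspan5. Without the low-value filter none was called. Without the mean-variance trend none was called either, where 0 of all genes passed and 1461 had an unadjusted p-value under 0.05, and with quantile normalization Sox4 and Ccnd1 were. The direction was the same in every alternative run for each of the 6. Of the 40 targets listed, 9 had no reads in any library, where 43.5% of all listed genes had none. Sp5, Ascl2, Mmp7, Tnfrsf19, Cdx1 and Olfm4 were among them. Other targets had reads in every library, among them Sox9, Cd44, Ephb2 and Ephb3. Sox9 and Cd44 averaged 306 and 392 CPM in sgNT and 259 and 395 CPM in sgCbfb.

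**Figure D4:**
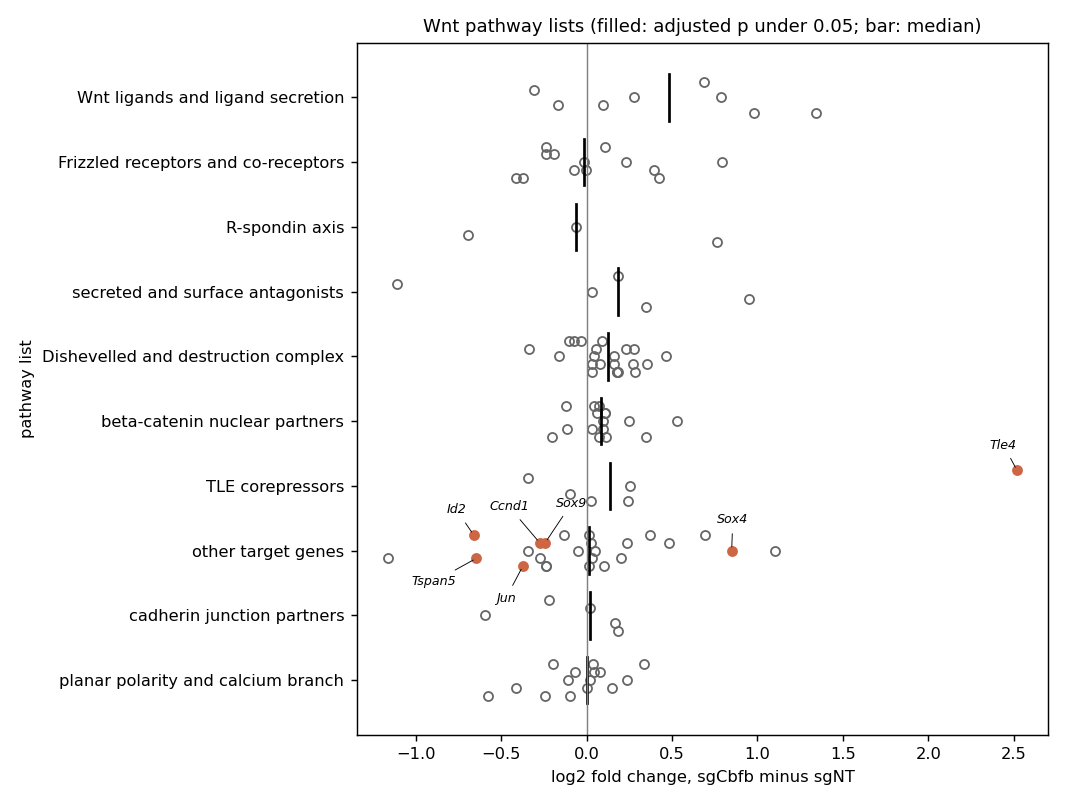
Log2 fold change (sgCbfb minus sgNT) of each tested gene in 10 lists of the wider Wnt pathway, with filled points for genes past the threshold and bars for the list medians. The filled points are Tle4 among the corepressors and Sox4, Ccnd1, Sox9, Jun, Id2 and Tspan5 among the other targets, 7 of the 118 genes tested.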

How the data were processed

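Total RNA of MC38 cells was made into QuantSeq 3′ libraries. According to the study's methods and the submitters' processing notes, reads were trimmed with cutadapt 1.9, aligned to GRCm38/mm10 with HISAT2 2.1.0 and counted per gene with featureCounts. The annotation release, strand setting and handling of reads matching several genes are not given in the sources used here. The authors deposited log2 CPM values scaled to each library's own total, 1 column per library.

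Low values rise in steps of 1 read, which allowed read numbers to be recovered. At least 99.99% of values above that of a gene with 0 reads were within 0.1 of a whole number. The steps imply an added count of about 2 scaled to library size. Recovered reads served to describe depth and CPM and for voom. Intervals from reads cover counting error only.

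The deposited log2 values were tested with limma (version 3.58.1, under R 4.3.3), by linear fits, moderated with a mean-variance trend and without a replicate block. The 12207 genes tested had a log2 CPM of 0 or more in 2 or more libraries. Tests were two-sided, p-values were adjusted by Benjamini-Hochberg, and the threshold was 0.05. The study used voom with limma, which takes reads, so voom on recovered reads was run as an alternative. The others were no filter, a minimum of 5 CPM, median centring, quantile normalization, ribosomal RNA genes (Rn45s, Rn18s) left out of the totals, no trend, the replicate block, and each library left out.

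The genes named are the 10 members, Cbfb, and in each of 10 pathway lists every gene past the threshold or, with none, the 3 of highest mean level. The lists hold 186 genes found in the file. Others are named after their values were seen. The members and lists were chosen with earlier results of these data known. Positions are from GENCODE M21 (GRCm38), start windows from RefSeq (GRCm38.p6). Genes overlapping a member that are in the file had at most 3 reads in any library. Figures were drawn with matplotlib 3.10.9.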

Additional observations from a re-analysis of the deposited data

How the results depend on the processing

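Members past the threshold numbered 0 under every alternative. Depth limits the precision for Tcf7, Lef1 and Rnf43, which had at most 23 reads in a library. Tcf7 was reversed with quantile normalization and with median-scaled voom (-0.037 and -0.036). With single libraries left out Tcf7 ranged from -0.30 to 0.37, Rnf43 from -0.53 to 0.094 and Lef1 from -0.93 to -0.31. In the same fits Ctnnb1 ranged from 0.059 to 0.21, Tcf7l1 from 0.044 to 0.28 and Tcf7l2 from 0.034 to 0.094. Cbfb kept its log2 fold change of -1.27 without the filter and without the trend, but not its call (adjusted p = 0.290 and 0.115 from limma). With single libraries left out it ranged from -1.41 to -1.12, with the call lost without either sgCbfb library. Pathway genes past the threshold were 2 higher and 5 lower. Without the filter and without the trend there were 0 and 0. There were 5 higher with a minimum of 5 CPM and with the replicate block, 4 higher in voom on library totals, and 1 lower with quantile normalization. With single libraries left out there were 0 to 2 higher and 0 to 1 lower. Over all tested genes, 192 higher and 153 lower became 2 and 53 without the filter (26322 genes enter that fit, 11447 of them with no reads), 39 and 44 with quantile normalization and 0 and 0 without the trend. There were 300 higher with a minimum of 5 CPM, 320 higher with the replicate block and 236 lower in median-scaled voom. With single libraries left out there were 0 to 115 higher and 0 to 86 lower. The numbers pair nothing the labels name, and deviations of same-numbered libraries correlated at -0.0042 across genes. The pseudocount alternative was not run, since the values are already log2. A library left alone in its group is assumed to vary like the other group. Causes were not tested.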

Other observations

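Of the pathway genes not past the threshold in the main test, 4 passed under some alternatives, and they were singled out after their values were seen. Tbx3, a T-box factor gene, had 52 and 46 reads in sgNT and 100 and 71 in sgCbfb (log2 fold change 0.69, adjusted p = 0.0542 from limma). Ephb3, a receptor gene that positions cells along the intestinal crypt, had 12 and 17 reads in sgNT and 46 and 26 in sgCbfb (log2 fold change 1.10, adjusted p = 0.0641 from limma). Snai2, a repressor of epithelial genes, had 28 and 38 reads in sgNT and 20 and 10 in sgCbfb (log2 fold change -1.16, adjusted p = 0.0548 from limma). Dvl2, a Dishevelled gene, had 201 and 201 reads in sgNT and 306 and 238 in sgCbfb (log2 fold change 0.35, adjusted p = 0.0761 from limma). All 4 passed with a minimum of 5 CPM and with the replicate block. Ephb3, Snai2 and Tbx3 also passed in voom with library totals, and Snai2 with median centring, with ribosomal RNA genes left out of the totals and in median-scaled voom.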
